A study of Drosophila melanogaster with 8 samples.

Results

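The genes described here build the presynaptic active zone, the membrane patch at which synaptic vesicles fuse, and were examined for binding of the E-protein Daughterless (Da) in adult *Drosophila melanogaster* heads. The 9 genes were *RhoGAP100F*, *brp*, *Rim*, *Rbp*, *unc-13*, *Liprin-alpha*, *Lar*, *cac* and *Nrx-1*, out of 13968 protein-coding genes. They were listed by name, with earlier results of these data known. A ChIP-seq peak was assigned to a gene when its summit lay in the gene or within 5 kb of it. The 9 intervals together covered 504.6 kb, of which 414.6 kb lay inside the genes.

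Chromatin from heads of flies aged 1 to 3 days was precipitated with anti-FLAG antibody and sequenced. In 3xFLAG-Da flies the endogenous Da protein carries a 3xFLAG tag, and this line was made in the white* background. Control flies were white* without any FLAG sequence, so both lines share that background. Each line gave 2 precipitated (IP) samples and 2 inputs, and the peak lists of the 4 IP libraries were used. Whole heads, male and female mixed, contain photoreceptors, glia, fat body and muscle beside brain neurons, so the cells that carried a bound site cannot be told apart. Peak lists hold no expression values, so the labelled tissue was not checked against markers.

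Da belongs to the basic helix-loop-helix (bHLH) transcription factors, which bind as dimers to E-boxes, short DNA words of the form CANNTG. At the fly neuromuscular junction, RhoGAP100F (known as Syd-1) and the scaffold Liprin-alpha start the assembly of an active zone, together with the adhesion molecule Neurexin (Nrx-1) and the receptor tyrosine phosphatase Lar. Bruchpilot (brp), Rim and the RIM-binding protein Rbp form the mature scaffold around the calcium channel subunit encoded by *cac*, and Unc-13 makes vesicles ready for fusion.

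Peaks that overlapped by at least 1 bp between both lists of the tagged line, and met no Control IP peak, were merged and called a 3xFLAG-Da site. Fold is the deposited ratio of summit pileup over local background. The 3xFLAG-Da IP libraries had 10915 and 8745 peaks (replicates 1 and 2) and the Control IP libraries 453 and 707, which gave 6647 sites on the chromosome arms. Recovered coverage reached 9.36 and 4.17 fragments per base in 3xFLAG-Da, against 1.92 and 1.72 in Control. Where the local background equalled that coverage, the smallest fold that could be called was 1.93 and 2.52 in the 3xFLAG-Da IP lists, against 3.43 and 3.68 in the Control IP lists. Where the background was higher, smaller folds were called. Depth and line therefore cannot be told apart in counts of peaks, and a missing Control peak says less than a missing 3xFLAG-Da peak.

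Promoter sequences are shown for 3 of the 4 genes that had a site within 1000 bp of an own transcript start, and for the strongest peak near a start of *RhoGAP100F*. The sequence of the other such gene, *brp*, is not shown. Each stretch lies within 100 bp of a summit, reads 5′ to 3′ on the strand of the active zone gene, and leaves out annotated UTR bases. Capitals mark 3 E-boxes on either strand: CAGCTG, the word CAGGTG and the word CAGATG. Sequences are from the RefSeq Release 6 genome, at chr2L:6722931-6723087, chr2L:19587153-19587225, chr3R:22468942-22469142 and chr3R:31812297-31812455, in the order of the lines.
Liprin-alpha site: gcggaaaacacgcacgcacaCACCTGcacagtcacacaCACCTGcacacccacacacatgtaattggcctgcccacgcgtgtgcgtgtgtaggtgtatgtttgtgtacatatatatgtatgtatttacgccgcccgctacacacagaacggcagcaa
Lar site: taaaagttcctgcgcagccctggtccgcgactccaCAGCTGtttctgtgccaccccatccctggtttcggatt
Nrx-1 site: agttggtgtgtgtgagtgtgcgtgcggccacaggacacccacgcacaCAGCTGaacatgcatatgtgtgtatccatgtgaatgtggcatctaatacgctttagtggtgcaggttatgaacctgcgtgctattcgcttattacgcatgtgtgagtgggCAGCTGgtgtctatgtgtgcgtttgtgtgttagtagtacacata
RhoGAP100F replicate 1 peak: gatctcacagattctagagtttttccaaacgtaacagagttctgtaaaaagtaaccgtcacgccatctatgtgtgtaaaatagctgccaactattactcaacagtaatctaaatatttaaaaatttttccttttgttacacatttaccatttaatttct
The *Liprin-alpha* stretch held 2 CAGGTG words, read here as CACCTG. The *Lar* stretch held 1 CAGCTG and the *Nrx-1* stretch held 2. The *RhoGAP100F* stretch held 0 of the 3 words and had a GC content of 30.8%, against 52.2% at *Liprin-alpha*, 57.5% at *Lar* and 48.8% at *Nrx-1*. The stretches differ in length, with 157, 73, 201 and 159 bp in the order shown. Of all sites, 41.5% held at least 1 of the 3 words within 100 bp of the summit, so a stretch without them is common.

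To see how the antibody signal was distributed over the active zone genes, peaks were counted in each library. The 3xFLAG-Da IP libraries had 31 and 21 peaks there (replicates 1 and 2), and the Control IP libraries 1 and 1. The means were 26.0 ± 7.07 in 3xFLAG-Da and 1.00 ± 0 in Control (SD, n = 2 each). All values of 3xFLAG-Da were above those of Control. An exact permutation test over libraries (two-sided) gave p = 0.333, the smallest p that 2 libraries against 2 can give. The study describes its ChIP-seq replicates as biological, and the labels do not say how the flies of each were grown. The active zone intervals took 0.284% and 0.240% of all peaks in the 3xFLAG-Da IP lists, against 0.221% and 0.141% in the Control IP lists.

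*Nrx-1* and *brp* had the most peaks. *Nrx-1* had 6 and 5 peaks in the 3xFLAG-Da IP libraries and 0 and 0 in the Control IP libraries. *brp* had 6 and 4 peaks in 3xFLAG-Da, against 0 and 1 in Control. *Lar*, the longest of the genes with 145.4 kb, had 4 and 4 in 3xFLAG-Da and 0 and 0 in Control.

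*RhoGAP100F* had 4 and 2 peaks in 3xFLAG-Da and 1 and 0 in Control. *Rim* had 4 and 2 peaks in 3xFLAG-Da, *Rbp* 4 and 1, *unc-13* 2 and 1, and *Liprin-alpha* 1 and 2, each against 0 and 0 in Control. *cac* had 0 peaks in all 4 libraries. A peak was thus present at 8 of the 9 genes in each 3xFLAG-Da IP list, where 78.1% and 70.1% of all protein-coding genes had one. In each Control IP list 1 of the 9 genes had a peak, where 8.0% and 11.6% of all protein-coding genes did.

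**Figure D1:**
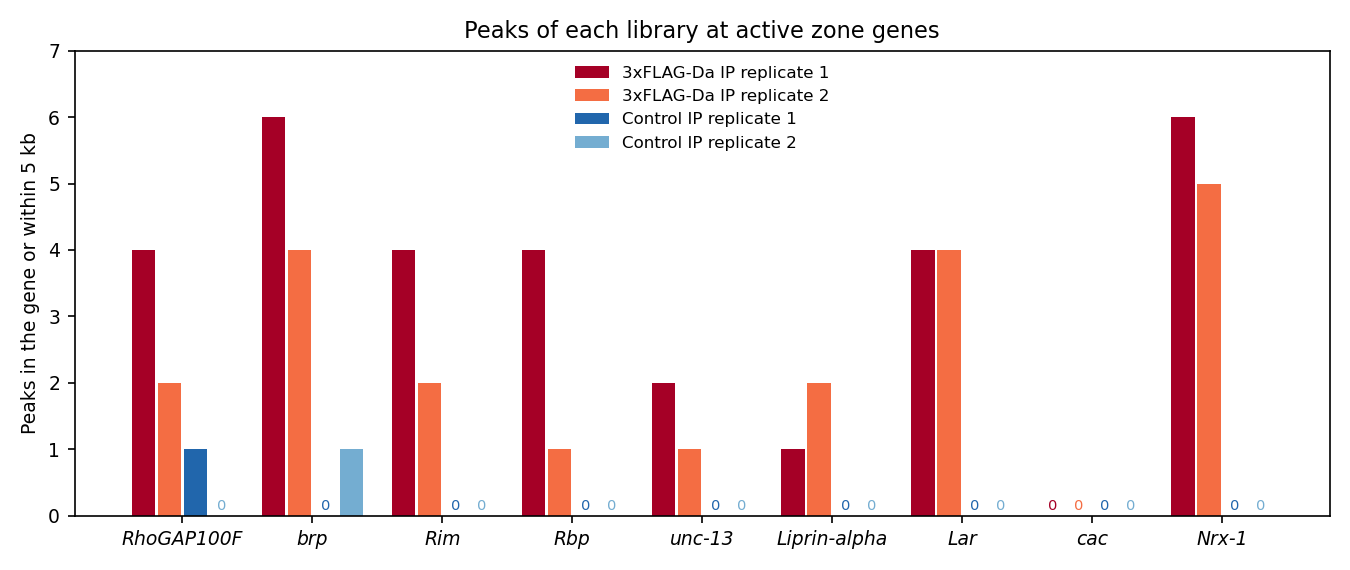
Number of peaks (vertical axis) with the summit in each of the 9 genes or within 5 kb, for each of the 4 IP libraries, with 3xFLAG-Da bars left of Control bars. Both 3xFLAG-Da IP libraries had peaks at 8 of the 9 genes, and the Control IP libraries had 1 peak each, at *RhoGAP100F* and at *brp*.

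The 2 Control peaks lay inside genes and away from own promoters. The peak of Control IP replicate 1 lay in an exon of *RhoGAP100F*, in the 3′ UTR, with its summit at 31841658 on 3R and a fold of 4.35. No 3xFLAG-Da IP peak overlapped it. The peak of Control IP replicate 2 lay in intron 7 of *brp* with a fold of 5.17, and it overlapped a peak of 3xFLAG-Da IP replicate 2 with a fold of 3.44. That region had no peak in 3xFLAG-Da IP replicate 1 and was not a site.

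The 9 genes held 18 sites, in 8 of the 9 genes. Over all protein-coding genes 65.0% had a site in the same kind of interval, and among the 2158 genes at least as long as *Liprin-alpha* (8.864 kb), the shortest of the 9, 82.4% did. *Nrx-1* had 5 sites, *Lar* 4, *brp* 3 and *Rim* 2. *RhoGAP100F*, *Rbp*, *unc-13* and *Liprin-alpha* had 1 each, and *cac* had 0. A region shared by both 3xFLAG-Da IP lists was likewise present at 8 of 9 genes, where 68.2% of all genes had one. None of these 18 shared regions overlapped a Control peak, where 8.12% of all shared regions did. The count depended on 3xFLAG-Da IP replicate 2: when that library was left out, so that each replicate 1 peak counted as a site, it was 31.

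Most of these sites were outside the genes. Only 5 of 18 (27.8%, 95% Wilson interval 12.5 to 50.9%) lay inside, 7 lay in the upstream flank and 6 in the downstream flank. Over all pairs of a protein-coding gene and a site, 24.8% had the summit inside the gene. The 9 gene bodies held 0.121 sites per 10 kb, against 0.459 in the bodies of all protein-coding genes. Over genes and flanks together the rate was 0.357 per 10 kb at the 9 genes, against 0.574 in the intervals of all protein-coding genes. These rates were not matched for length: the median protein-coding gene has 2.164 kb, and the shortest of the 9 has 8.864 kb. Intervals of shares cover counting error only. A site inside the gene was present in 4 of the 9 genes, *brp*, *Rim*, *Lar* and *Nrx-1*, where 19.5% of all protein-coding genes and 54.3% of those at least as long as *Liprin-alpha* had one.

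**Figure D2:**
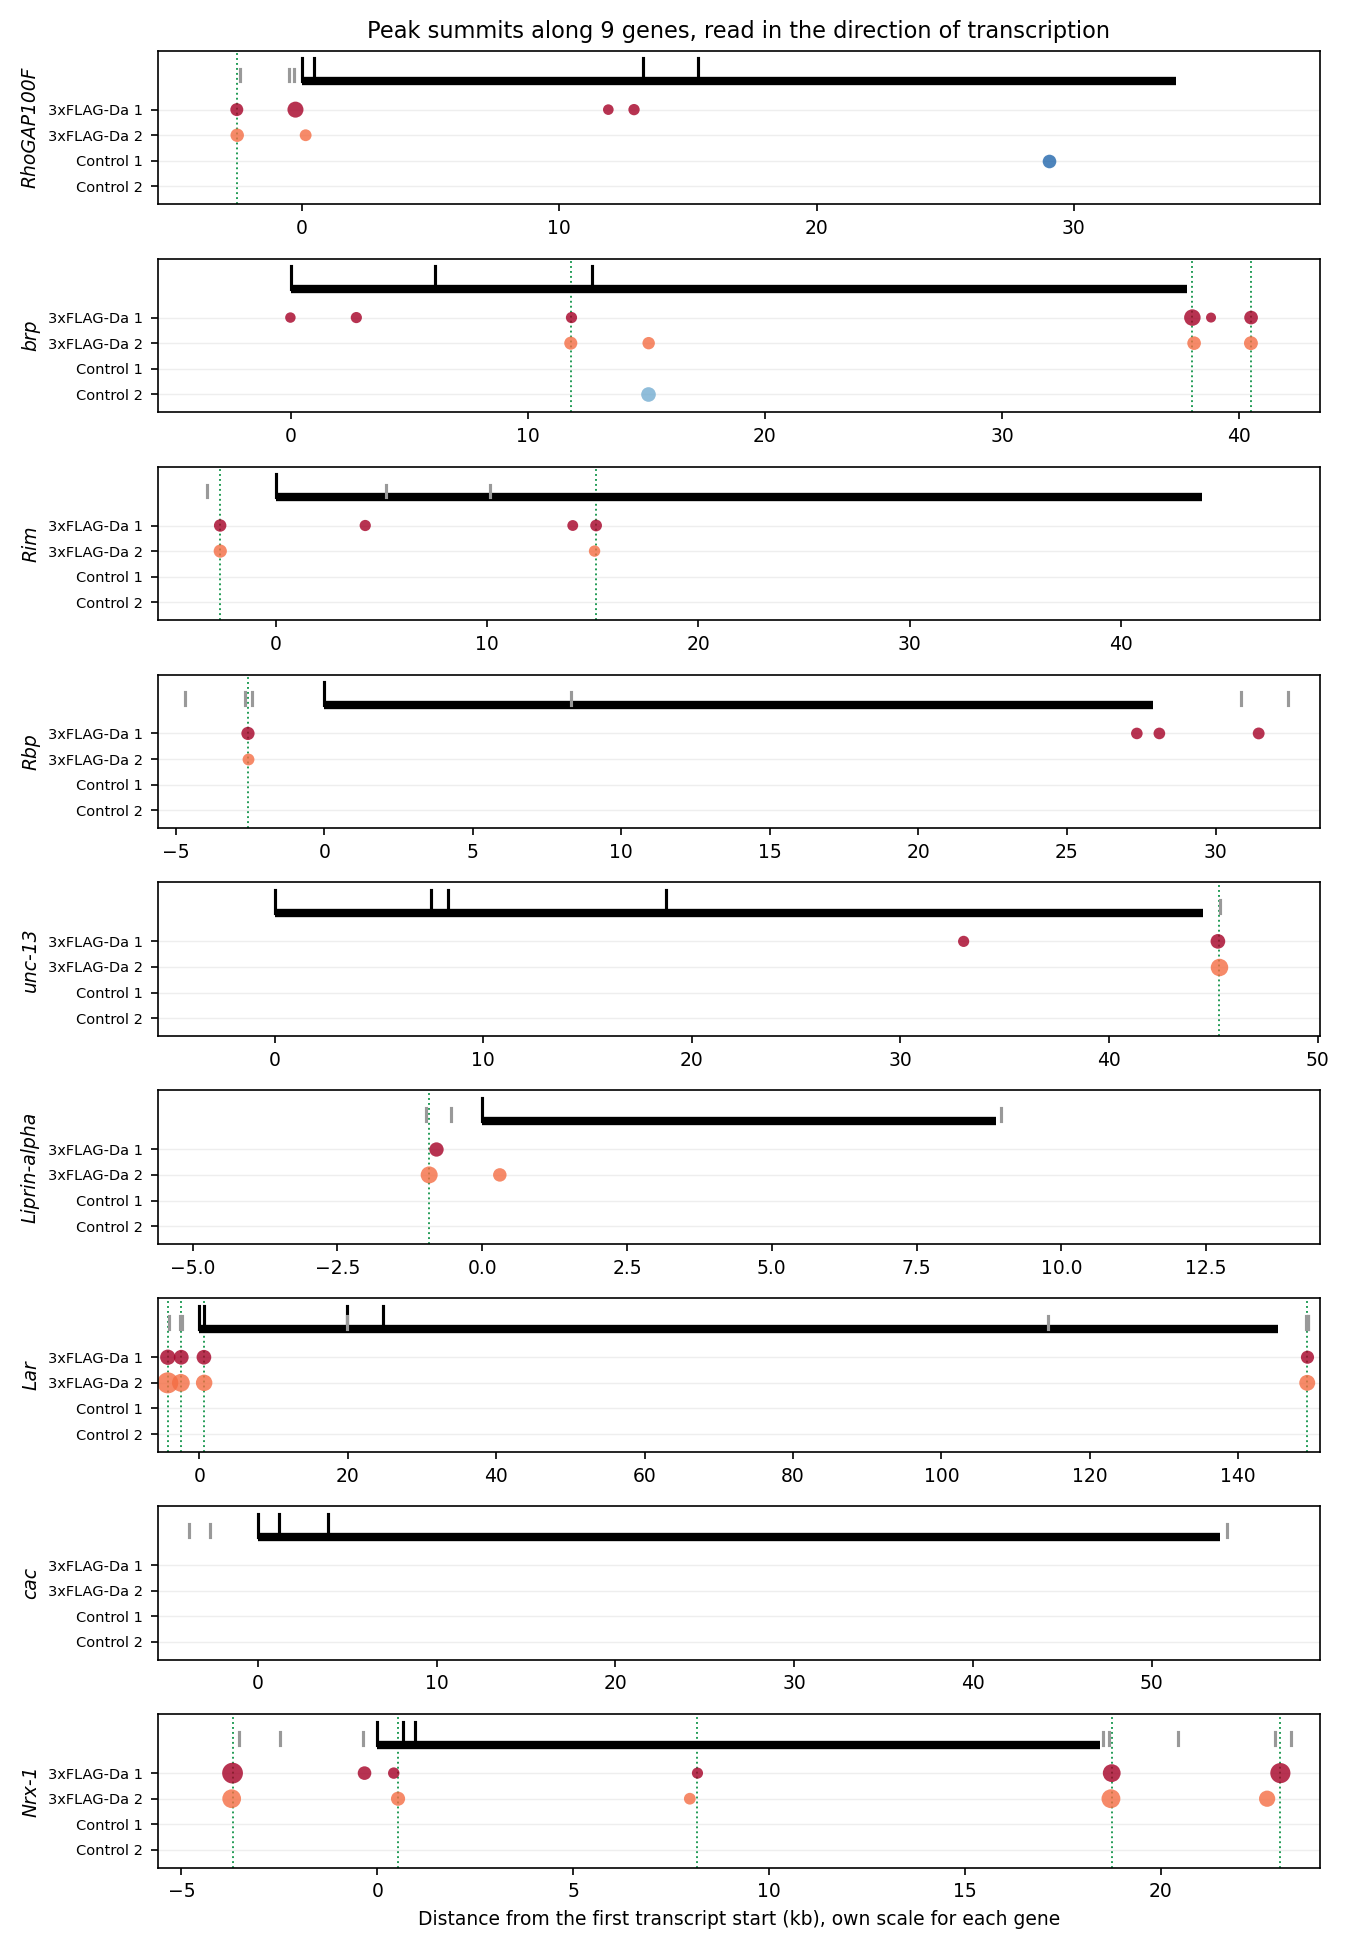
Peak summits of the 4 IP libraries along the 9 genes, one panel per gene, in kb from the first transcript start in the direction of transcription, with dot area growing with the fold. Thick bars are genes, black ticks own promoters, gray ticks neighbouring promoters and green dotted lines sites, and most of the 18 sites stand outside the bars, 7 upstream and 6 downstream.

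The sites were then set against transcript starts. Of the 18 sites, 14 (77.8%, 54.8 to 91.0%) had the summit within 1000 bp of a start of some gene, where 70.1% of all sites did. In 11 of these 14 the nearest start belonged to a neighbouring gene, and in 3 to the active zone gene itself. The remaining 4 sites were farther from any start. Thus 3 of 18 sites (16.7%, 5.84 to 39.2%) were nearest to an own start, where the share over all pairs of a gene and a site was 32.0%, and 50.2% for genes at least as long as *Liprin-alpha*.

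Counted by promoter, 7 of the 24 promoters of the 9 genes (29.2%, 14.9 to 49.2%) had a site within 1000 bp, where 38.2% of all promoters of protein-coding genes did, and 45.5% of those of genes at least as long as *Liprin-alpha*. Several of these promoters shared a site: 3 belong to *Nrx-1*, 2 to *Lar*, 1 to *brp* and 1 to *Liprin-alpha*. Within 500 bp the number was 3. Neighbouring genes had 35 promoters in the same intervals, and 19 of these (54.3%, 38.2 to 69.5%) had a site. Several of the neighbouring promoters also shared a site, so the promoters are not independent counts. The sites at the starts of *Liprin-alpha* and *Nrx-1* were counted for own and neighbouring promoters alike. By gene, 4 of the 9 had a site at an own start, where 38.8% of all protein-coding genes did and 61.2% of those at least as long as *Liprin-alpha*. A peak of 3xFLAG-Da IP replicate 1 lay at an own start of 5 of the 9 genes and one of replicate 2 also at 5, where 55.6% and 44.4% of all protein-coding genes had one. In the Control IP lists it was 0 and 0 of 9, where 2.62% and 4.62% did. With 9 genes and 18 sites the intervals are wide, and no test was made of these shares.

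**Figure D3:**
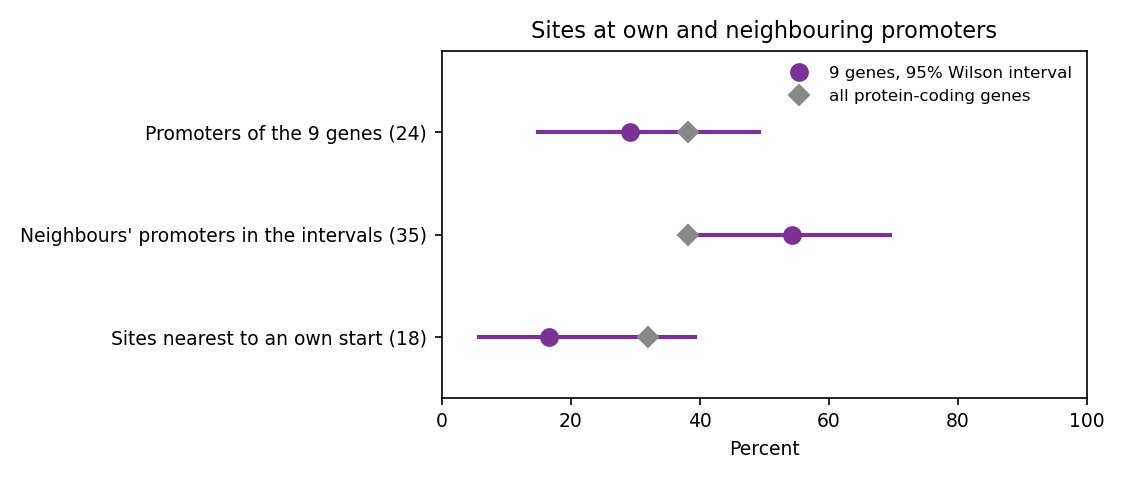
Percent (horizontal axis) of the 24 promoters of the 9 genes and of 35 neighbouring promoters that had a site within 1000 bp, and of the 18 sites that were nearest to an own start, with 95% Wilson intervals. Promoters that shared a site were counted separately. Gray diamonds give the share over all protein-coding genes: 29.2% of own promoters and 54.3% of neighbouring promoters stand beside 38.2%, and 16.7% of sites stands beside 32.0%.

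The sites at neighbouring starts ranked higher within their lists. A strength percentile, the mean of the fold percentiles of the site's peaks in both lists, had a median of 75.6 over the 11 sites at neighbouring starts. It had a median of 34.9 over the 3 sites nearest to an own start and of 34.0 over the 4 sites away from starts. The *Liprin-alpha* site, with a percentile of 72.1, lay within 1000 bp of an own start but nearer to *homer*. It was counted with the neighbouring starts, so the contrast depends on this assignment. The median was 62.4 over the 18 sites and 56.5 over all sites. The classes overlapped: sites at neighbouring starts ran between 31.3 and 92.9, and sites nearest to own starts between 23.9 and 72.4.

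**Figure D4:**
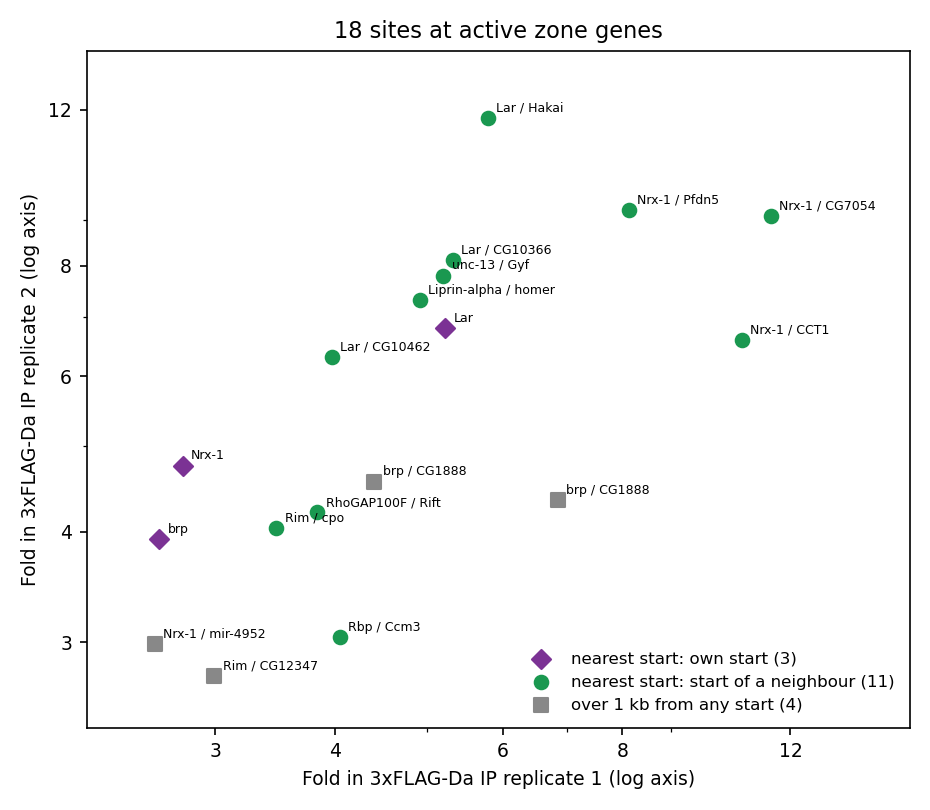
Fold of the 18 sites in 3xFLAG-Da IP replicate 1 (horizontal) and replicate 2 (vertical), both on log axes, labelled with the active zone gene and the gene of the nearest start. Among the 3 sites nearest to an own start the highest folds were 5.22 and 6.80 in replicates 1 and 2, both of the *Lar* site. Among the 11 at neighbouring starts they were 11.4 in replicate 1, at *CG7054*, and 11.8 in replicate 2, at *Hakai*. The groups differ in size, and the highest of more sites tends to be larger.

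*RhoGAP100F* lies on 3R at 31812609 to 31846570 and has 4 promoters. Its single site, at 31809626 to 31810562, was 2534 bp upstream of the gene and 111 bp inside the start of *Rift*, with folds of 3.84 and 4.21 in replicates 1 and 2 of 3xFLAG-Da and no peak in Control. Closer to the gene, each 3xFLAG-Da IP list had a peak of its own. The replicate 1 peak, at 31812139 to 31812561, had a fold of 6.41 and ranked 1994 of 10915, with a pileup of 118 fragments. Its summit was 254 bp upstream of the first *RhoGAP100F* start and 59 bp upstream of the start of *FeCH*, the gene of ferrochelatase in heme synthesis, which is transcribed the other way. The shown *RhoGAP100F* stretch surrounds this summit.

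The replicate 2 peak, at 31812562 to 31812840, had a fold of 3.04 and ranked 7942 of 8745. Its summit lay in the 5′ UTR, 142 bp after the first *RhoGAP100F* start. These 2 peaks abutted with a gap of 0 bp and shared no base, and their summits were 396 bp apart, so the region was not a site. Of the replicate 1 peaks that were at least as strong, 94.0% overlapped a replicate 2 peak.

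Farther inside *RhoGAP100F*, replicate 1 alone had 2 weak peaks in intron 2, with summits 1329 and 330 bp upstream of the third promoter and folds of 2.26 and 2.70. Its most distal promoter had no peak within 1000 bp in any list. The 4 peak counts of *RhoGAP100F* (4 and 2 in 3xFLAG-Da, 1 and 0 in Control) were shared by 5 other protein-coding genes, of which *CG7518*, *CG2656* and *CG3655* were the nearest in length. Likeness was the Euclidean distance between the counts of the 4 libraries. Each of these 3 genes had a site at an own start, as did 4 of the 5. The 5 genes were picked by peak counts from the same lists that define sites. Their share therefore cannot be compared with the 38.8% of all protein-coding genes, which include genes without any peak. *RhoGAP100F* had none, because the peaks of both 3xFLAG-Da IP lists at its first promoter shared no base.

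**Figure D5:**
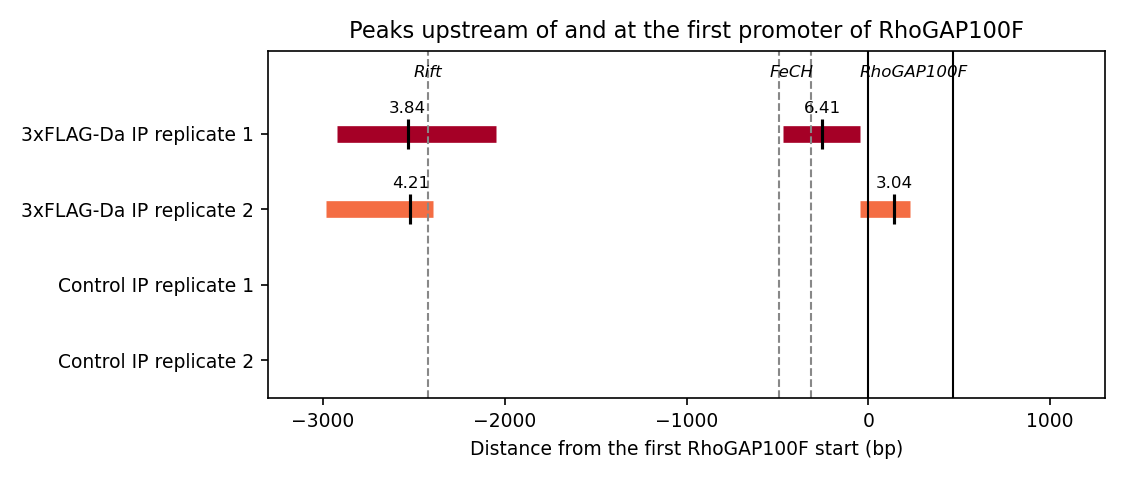
Peaks of the 4 IP libraries around the first *RhoGAP100F* promoter, in bp from its first start, with bars for peak extents, black ticks for summits and numbers for folds. Solid lines are *RhoGAP100F* starts and dashed lines neighbouring starts, and the replicate 1 peak (fold 6.41) ends where the replicate 2 peak (fold 3.04) begins, while the Control lanes hold no peak.

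Of the other genes of early assembly, *Liprin-alpha*, *Lar* and *Nrx-1* each had a site within 1000 bp of an own start, beside 38.8% of all protein-coding genes and 61.2% of those at least as long as *Liprin-alpha*. With summits required to lie within 100 bp, only *Lar* of these 3 kept such a site. *Liprin-alpha*, on 2L at 6723903 to 6732766, shares its upstream region with *homer*, which encodes a postsynaptic scaffold and is transcribed the other way. A region at 6722764 to 6724509 spanned both genes' starts, with folds of 4.92 and 7.32 in replicates 1 and 2 of 3xFLAG-Da and no peak in Control. In replicate 1 it was a single peak with its summit 795 bp upstream of *Liprin-alpha*. Replicate 2 split it into 2 peaks, the stronger 916 bp upstream of *Liprin-alpha* and 57 bp upstream of a *homer* start, and a second with a fold of 4.25 in the *Liprin-alpha* 5′ UTR, 304 bp after its start. The 2 CAGGTG words shown above lie at the stronger summit. When peaks had to overlap by 50% of both, or summits had to lie within 100 bp, *Liprin-alpha* had 0 sites.

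*Lar* had a site at its second promoter, on 2L at 19586964 to 19587476. The summits lay 3 bp before the start in 3xFLAG-Da IP replicate 1 and 27 bp after it in replicate 2, with folds of 5.22 and 6.80 and no peak in Control. This was the strongest of the sites nearest to an own start. The 2 distal *Lar* promoters, 19.9 and 24.8 kb downstream of the first, had no peak within 1000 bp in any list.

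The other 3 sites of *Lar* were at neighbours. The strongest was 126 bp inside the start of *Hakai*, a ubiquitin ligase gene, with folds of 5.79 and 11.8 in replicates 1 and 2. A site 120 bp upstream of *CG10366* had folds of 5.32 and 8.12, and a site 54 bp inside *CG10462*, past the 3′ end of *Lar*, had folds of 3.97 and 6.30. In the 145.4 kb of the gene itself no other peak was found in any list.

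*Nrx-1* had the highest site density of the 9 genes, 1.76 per 10 kb, which exceeded that of 84.6% of protein-coding genes. When summits had to lie within 100 bp, 2 sites were left, those nearest to the starts of *CG7054* and *Pfdn5*. The site at its own promoters, on 3R at 22468813 to 22469315, showed folds of 2.77 and 4.75 in replicates 1 and 2 of 3xFLAG-Da and no peak in Control. The summit was 139 bp upstream of the second of its 3 promoters and within 1000 bp of all of them. The summits of the 2 libraries were 110 bp apart. The 2 CAGCTG words of the shown stretch were within 100 bp of that summit.

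Stronger sites flanked *Nrx-1*. The site 168 bp upstream of *CG7054* had folds of 11.4 and 9.12, the highest strength percentile of the 18 sites. Sites at *CCT1*, a chaperonin subunit gene, and *Pfdn5*, a prefoldin subunit gene, had folds of 10.7 and 6.59 and of 8.13 and 9.26. Both chaperone genes lie past the 3′ end of *Nrx-1*. A weak site in intron 7 of *Nrx-1* had folds of 2.59 and 2.99. A peak at *CG5377*, 326 bp upstream of *Nrx-1*, occurred in replicate 1 only, with a fold of 4.34.

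Of *brp*, *Rim* and *Rbp*, the genes of the mature scaffold, *brp* had a site within 1000 bp of an own start. Beside this stand 38.8% of all protein-coding genes and 61.2% of those at least as long as *Liprin-alpha*. *Rim* and *Rbp* had no such site. The *brp* site lay in intron 7, on 2R at 9515381 to 9515739, with the summit 875 bp upstream of the third promoter. It had folds of 2.62 and 3.92 in replicates 1 and 2 of 3xFLAG-Da and no peak in Control. It held CAGCTG and CAGGTG within 50 bp of the summit. At the first promoter, which is used by 12 of the 14 *brp* transcripts, replicate 1 alone had a peak, 13 bp upstream of the start with a fold of 2.17. The other sites of *brp* lay past its 3′ end, 225 and 2701 bp downstream, with folds of 6.85 and 4.35 and of 4.40 and 4.56, and were over 1000 bp from any start.

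*Rim* and *Rbp* had no peak within 1000 bp of their single promoters in any list. A site in intron 7 of *Rim*, on 3R at 17900943 to 17901950, showed folds of 2.99 and 2.75 in replicates 1 and 2. Another lay 2652 bp upstream of *Rim* and 602 bp upstream of *cpo*, the RNA-binding protein gene couch potato, with folds of 3.48 and 4.03. The site of *Rbp* lay 2569 bp upstream, 109 bp inside the start of *Ccm3*, with folds of 4.05 and 3.04, and both summits were at the same base. Replicate 1 alone had 3 peaks at and past the 3′ end of *Rbp*, with folds between 2.88 and 3.05.

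*unc-13* and *cac*, the genes of vesicle priming and calcium entry, had no peak within 1000 bp of any of their promoters. Of all protein-coding genes, 55.6% and 44.4% had a peak of 3xFLAG-Da IP replicates 1 and 2 there, so many genes lack one. *unc-13*, on chromosome 4, has 4 promoters, and its site lay 757 bp past its 3′ end and 42 bp upstream of *Gyf*, with folds of 5.20 and 7.80 in replicates 1 and 2 of 3xFLAG-Da and no peak in Control. A peak in intron 13 of *unc-13* occurred in replicate 1 only, with a fold of 2.62, 75 bp upstream of the antisense transcript asRNA:CR44029.

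*cac*, on X at 11931280 to 11985087, had no peak in the 53.81 kb of the gene or in its flanks. The nearest summits were 8.40 and 14.04 kb from the gene in the 3xFLAG-Da IP lists and 46.57 and 46.57 kb in the Control IP lists. Of all protein-coding genes, 20.4% had no peak of any list, and of the 285 genes at least as long as *cac*, 23 (8.07%) had none. Enrichment too weak to be called as a peak was not detectable at this depth.

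Next, E-boxes were counted within 50 bp of each summit. At least 1 of the 3 words marked in capitals above occurred at 2 of the 18 sites (11.1%, 3.10 to 32.8%), the *brp* intron site and the site between *Liprin-alpha* and *homer*. Over all sites 26.4% held 1 of these words, and 10.6% of windows shifted by 250 bp did. The share at the 9 genes was 30% of 20 sites without 3xFLAG-Da IP replicate 1 and 19.4% of 31 sites without replicate 2. Both values lie within the interval above. Each peak of the remaining 3xFLAG-Da IP list then counted as a site, and the share over all sites was not computed for that setting. Any of the 10 E-boxes occurred at 9 of 18 sites (50%, 29.0 to 71.0%), where 51.9% of all sites held 1. Within 100 bp, the 3 words occurred at 7 of 18 sites (38.9%), where 41.5% of all sites held 1. CAGCTG alone was then at 5 of 18 sites, among them all 3 sites nearest to an own start, at *brp*, *Lar* and *Nrx-1*, where 23.3% of all sites held it. Within 50 bp CAGCTG was at 1 of 18 sites (5.56%), the *brp* intron site, where 14.1% of all sites held it. A match describes the sequence and is not a mapped binding site.

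Replicates were then compared peak by peak. Of the 31 peaks of 3xFLAG-Da IP replicate 1 at the 9 genes, 18 (58.1%, 40.8 to 73.6%) overlapped a replicate 2 peak, where 66.9% of all replicate 1 peaks did. Conversely, replicate 1 peaks overlapped 19 of the 21 in replicate 2 (90.5%, 71.1 to 97.4%), where 91.9% of all did. The 13 peaks found in replicate 1 only had folds between 1.90 and 6.41. For each, the chance of a call in replicate 2 at the same enrichment was computed from the recovered depths. It reached 0.95 for 2 of the 13, the peaks at *FeCH* beside *RhoGAP100F* and at *CG5377* beside *Nrx-1*. It was under 0.5 for 2 others, both assigned to *brp*, and between these values for the rest. For most of the 13 a call in replicate 2 was thus more likely than not, yet none was made. Both peaks found in replicate 2 only, at the *RhoGAP100F* promoter and in *brp* intron 7, had a chance of at least 0.95 of a call in replicate 1.

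Since the Control IP libraries were shallower, the chance that a site of the same enrichment would have been called in at least 1 Control IP list was computed in the same way. It was 0.95 or more for 12 of the 18 sites (66.7%, 43.8 to 83.7%), where 58.7% of all sites reached it. These 12 included the own-start sites of *Liprin-alpha*, *Lar* and *Nrx-1* and all sites of *unc-13* and *Lar*. The chance was 85.8% for the site upstream of *RhoGAP100F*, 83.2% for the *brp* intron site, 92.9% for that of *Rbp*, and 43.6% and 25.8% for the *cpo* and intron sites of *Rim*. It was 14.1% for the *Nrx-1* intron site, so there the lack of a Control peak carries little information.

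A list of 24 genes known to work with the active zone scaffold, its calcium channel or its assembly was examined in the same way. A site was present at 22 of 24 genes, all except *Nlg4* and *unc-104*, or 91.7%, beside 65.0% of all protein-coding genes and 82.4% of those at least as long as *Liprin-alpha*. A site at an own start was present at 16 (66.7%), beside 38.8% and 61.2%. Of their 52 sites, 25 (48.1%) were nearest to an own start, beside 32.0% and 50.2% of pairs of a gene and a site. The best-ranked sites were those of *hiw*, the ubiquitin ligase Highwire that limits synaptic growth, *Liprin-beta*, *dlg1*, the scaffold Discs large, and *Rab3-GEF*, the exchange factor of the vesicle GTPase Rab3.

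The *hiw* site had folds of 14.6 and 20.2 in replicates 1 and 2 of 3xFLAG-Da and lay 5 bp inside the start of *ND-B18*. The *Liprin-beta* site, 22 bp upstream of its own start, had folds of 14.9 and 14.4. The sites of *dlg1* (9.33 and 12.7) and *Rab3-GEF* (13.2 and 9.28) were nearest to the starts of *hop* and *Dbct*. Over the 22 partner genes with a site, the best-ranked site was nearest to an own start in 9. The partner genes had 92 and 73 of the 10915 and 8745 peaks in the 3xFLAG-Da IP lists. In the Control IP lists they had 9 and 9 of 453 and 707. As shares of their lists, the Control counts were the larger.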

How the data were processed

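Anti-FLAG ChIP-seq was measured in 8 samples, and the peak lists of the 4 IP libraries were analysed, 2 of 3xFLAG-Da and 2 of Control. Groups and replicate numbers came from the sample titles. Single-end reads were trimmed with BBDuk, mapped with Bowtie2 2.5.1 to the BDGP6 assembly, filtered and freed of duplicates with SAMtools 1.12, and the authors called peaks per IP library with MACS2 2.2.7.1, using the matching input and q of 0.05, without pooling replicates (versions also stand in the submitters' processing notes). Each deposited row gives a region, a summit, a score (not used), a fold ratio, and the −log10 p and −log10 q of the authors' caller. The fold is the ratio of summit pileup to local background with 1 added to both, and was used only to describe and rank peaks in their own list.

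Depth was recovered from the lists: fold and −log10 p fix pileup and background under the Poisson model, and a whole-number pileup matched within 0.002 for 100% of peaks. The most frequent background was read as coverage. The chance of a call at another depth followed from this model.

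Sites, flanks of 5 kb, promoter windows of 1000 bp (starts joined within 100 bp) and E-box windows of 50 bp were computed in Python 3.11.15 (numpy 2.4.6, pandas 2.3.3, scipy 1.17.1), with Ensembl release 115 models (BDGP6.54) and the RefSeq Release 6 genome. Of 16237 annotated start codons, 99.9% read ATG in that genome. Overlap and pileup steps were tested on simulated data. Peaks per library were compared by an exact permutation test (two-sided). Other values are counts and shares with 95% Wilson intervals, set beside all protein-coding genes or all sites. Alternatives covered flank, overlap, threshold, window and left-out libraries. The 9 genes and the partner list were chosen with earlier results of these data known. All 9 genes, the 4 partner genes with the best-ranked sites, the 3 genes most like *RhoGAP100F* and neighbours nearer to a peak were named.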

Additional observations from a re-analysis of the deposited data

How the results depend on the processing

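Of 112 comparisons of a main value with an alternative, 89 stayed within their limits, 23 moved and 0 reversed. Limits were a set ratio for counts and rates, the main Wilson interval for shares and the spread between replicates for the median percentile. Only the difference of peak counts could be labelled reversed. None of the 18 shared regions met a Control peak, so keeping such regions or leaving out a Control list could not change site values. With no flank, 5 sites in 4 genes remained countable, at 0.121 per 10 kb, with a median strength percentile of 23.9 and 2 sites that would be called at Control depth. With a flank of 1 kb there were 9 sites at 0.208 per 10 kb, of which 6 would be called. Overlap of 50% of both peaks gave a promoter share of 92.9% and a median percentile of 66.6. Summits within 100 bp, or starts within 500 bp, left 3 promoters with a site. A −log10 q of at least 5 gave a median percentile of 68.1. With only sites callable at Control depth, 5 genes had a site and the median percentile was 74.03. Counting only sites nearest to an own start left 3 sites in 3 genes. An E-box window of 100 bp gave 38.9%. Leaving out each library in turn gave 18 to 31 sites, 0.357 to 0.614 per 10 kb, 7 to 11 promoters with a site, an E-box share of 11.1% to 30% and a median percentile of 40.5 to 62.4, and the difference of mean peak counts was 20 to 30. The high site count came without 3xFLAG-Da IP replicate 2. With the replicate block, where the numbers are shared across lines only as labels, the difference of 25 peaks had p = 0.5 by the exact permutation test, the smallest it allows. Depth limits the Control lists most, and read counts at sites were not analysed here, so a differential test on reads was not made. The study itself tested enrichment of peaks over white*, and that result was not used here.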
